A study of Mus musculus with 2 samples.

Results

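The aminoacyl-tRNA synthetase genes are the 35 genes, named in a fixed list of cytosolic and mitochondrial enzymes, that were looked up by Ensembl identifier among 42462 annotated genes. All 35 were found, 19 for cytosolic and 16 for mitochondrial enzymes. The tissue was the whole brain of embryos of the mouse strain C57BL/6J on day 14.5 of gestation, from littermates of both sexes, with no treatment or mutation named. There were 2 libraries of polyadenylated RNA, called biological replicate 1 and biological replicate 2 in the labels, in 1 group. No comparison between conditions can be made, and with 1 library against 1 library no test was run. The labels do not say which littermates each library holds. Summed expected counts, the estimated number of fragments per gene, were 107938353 in replicate 1 and 101105391 in replicate 2.

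Each synthetase joins 1 kind of amino acid to its tRNA, and the charged tRNA carries that amino acid to the ribosome. Cytosolic and mitochondrial translation mostly use separate enzymes, and the mitochondrial ones, whose symbols end in 2, are encoded in the nucleus and imported. Some cytosolic enzymes sit together in the multisynthetase complex on the scaffold proteins Aimp1, Aimp2 and Eef1e1. Many cytosolic synthetase genes are known targets of ATF4, the transcription factor of the amino acid response, which binds a DNA element that joins half-sites for C/EBP and ATF proteins.

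That element gives a sequence feature the gene list did not use. Its core, TGATGNAA (reverse complement TTNCATCA), was searched on both strands of the RefSeq promoter windows of GRCm38.p6, which run from 250 bases before to 50 bases after each start site. Of 35 genes, 26 had an entry. Lars, Rars, Cars, Hars, Nars, Vars, Wars, Hars2 and Pars2 had none. The core was present in 5 of the 26, and these were Aars, Gars, Iars, Tars and Yars. All 5 belong to the list of synthetases known to respond to ATF4, of which 7 had a promoter entry, the others being Eprs and Sars. It was found in 0 of 5 other cytosolic genes and in 0 of 14 mitochondrial ones, and 3.97% of all 32851 promoters held it. The 5 promoters are shown, from 150 bases before to 30 bases after the start site and 5′ to 3′ on the strand of the gene, because they carry the core, which is in capitals.
Aars (chr8:111033692-111033871, plus strand): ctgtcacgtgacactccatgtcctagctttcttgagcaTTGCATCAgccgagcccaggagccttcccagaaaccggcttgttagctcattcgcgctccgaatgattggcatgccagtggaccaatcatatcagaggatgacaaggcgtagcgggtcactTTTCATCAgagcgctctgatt
Gars (chr6:55037851-55038030, plus strand): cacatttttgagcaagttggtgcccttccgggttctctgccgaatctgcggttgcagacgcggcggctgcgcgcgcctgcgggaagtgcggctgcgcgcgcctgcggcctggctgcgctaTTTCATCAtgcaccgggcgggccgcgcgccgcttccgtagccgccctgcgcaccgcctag
Iars (chr13:49681980-49682159, plus strand): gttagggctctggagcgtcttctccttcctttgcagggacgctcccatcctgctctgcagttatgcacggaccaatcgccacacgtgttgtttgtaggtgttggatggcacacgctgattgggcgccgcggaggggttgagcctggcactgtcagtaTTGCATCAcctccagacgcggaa
Tars (chr15:11399629-11399808, minus strand): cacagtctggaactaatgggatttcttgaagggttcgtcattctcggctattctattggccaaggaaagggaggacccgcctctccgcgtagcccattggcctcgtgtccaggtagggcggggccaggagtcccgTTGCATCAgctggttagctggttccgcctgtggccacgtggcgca
Yars (chr4:129189753-129189932, plus strand): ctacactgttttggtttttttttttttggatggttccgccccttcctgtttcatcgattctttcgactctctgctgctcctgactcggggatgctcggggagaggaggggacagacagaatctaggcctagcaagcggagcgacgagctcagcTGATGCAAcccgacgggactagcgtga
Aars held the core at 2 places, and in Yars alone it lay on the strand of the gene. A match of these letters is a description of the window and does not show that a factor binds there.

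The labelled tissue was checked against marker genes. The neuronal genes Tubb3, Stmn2 and Dcx were at 2753, 624 and 198 TPM in replicate 1 and at 2640, 713 and 238 TPM in replicate 2 (a level per transcript length). The libraries differed in regional genes. The forebrain genes Emx1 and Lhx2 were at 57.4 and 227 TPM in replicate 1 and at 10.6 and 122 TPM in replicate 2. The more caudal genes Hoxb3, Hoxa5 and Pax2 were at 3.82, 4.10 and 1.59 TPM in replicate 1 and at 31.8, 35.8 and 15.4 TPM in replicate 2. The connective tissue genes Col1a1 and Col3a1 were at 36.6 and 146 TPM and at 81.6 and 132 TPM, and the erythroid gene Alas2 at 9.88 and 17.4 TPM. The skin genes Krt5 and Krt14 were at 25.5 and 37.8 TPM and at 18.9 and 27.9 TPM. The muscle genes Myh3 and Ckm were at 1.01 and 1.07 TPM and at 0.13 and 0.26 TPM. Every difference between the libraries given here is a difference between samples that also differ in these genes, and the part of this in each result was not tested. In whole tissue, fewer cells of a type and less RNA per cell cannot be told apart.

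All 35 genes were detected. Each reached 1 TPM in both libraries, where 62.2% of 21474 protein-coding genes did. In both libraries 33 of 35 reached 5 TPM, where 10695 of 21474 protein-coding genes did. The 19 cytosolic genes had a median of 49.7 ± 2.48 TPM (SD of the library medians, n = 2) and the 15 mitochondrial genes other than Lars2 a median of 15.3 ± 2.26 TPM, beside a median of 5.78 TPM over all protein-coding genes. Lars2 is kept apart throughout and is described last, because the mm9 signal at this gene lies mostly in 1 stretch that overlaps its last exon.

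**Figure D1:**
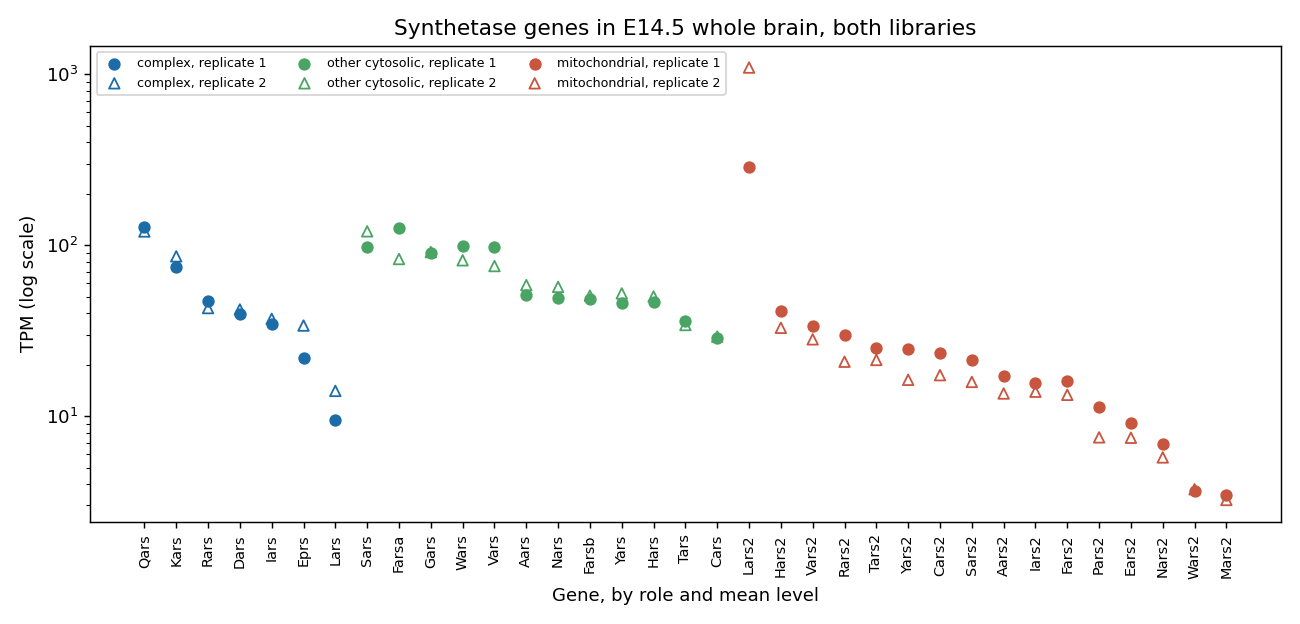
Level of each synthetase gene in TPM on a log axis, with filled circles for replicate 1 and open triangles for replicate 2, grouped by role and ordered by mean level. Mitochondrial genes lie mostly below cytosolic ones, and Lars2, at 285 and 1096 TPM, lies above all others.

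Among the 7 listed genes whose enzymes belong to the multisynthetase complex, Qars (mm10 chr9:108507706-108515941), the glutaminyl enzyme, had the highest gene level, with 128 TPM in the first library and 120 TPM in the second. Kars (chr8:111993443-112011323), the lysyl enzyme, followed at 74.7 and 86.1 TPM. Lars, the leucyl enzyme, was the lowest at 9.47 and 14.04 TPM. The order below Kars was Rars, Dars, Iars and Eprs, with means of 45.1 ± 3.14, 40.8 ± 1.82, 35.9 ± 1.68 and 27.9 ± 8.51 TPM (SD, n = 2). In replicate 1 Eprs, which joins the glutamyl and prolyl enzymes in 1 protein, was at 21.8 TPM and in replicate 2 at 33.9 TPM, so its range reached up to just below that of Iars. The 3 scaffold genes were at levels like those of the enzymes: Aimp2 had 66.1 and 57.9 TPM, Eef1e1 58.7 and 55.7 TPM, and Aimp1 46.1 and 41.8 TPM.

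The level of Qars depends on which transcripts are summed. Its leading transcript, Qars-209, is only 459 nt long and held 31.6% and 30.2% of the TPM of the gene, and retained-intron transcripts held 31.7% and 39.2%. Coding transcripts of 1000 nt or more gave Qars 33.2 and 31.2 TPM, which is near Iars at 33.99 and 36.1 TPM by the same sum. By that sum Qars had a mean of 32.2 TPM, below Kars at 80.4, Rars at 42.3, Dars at 40.1 and Iars at 35.1 TPM. A retained-intron transcript counted under Qars in the deposited annotation is assigned to the neighbouring gene Qrich1 in GENCODE vM21, which adds to the uncertainty of this gene.

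Outside the complex, 12 cytosolic genes ranged from 28.8 to 109 TPM in their means. Sars (chr3:108424865-108445209), the seryl enzyme, had the highest mean, with 97.7 and 121 TPM in replicates 1 and 2. Farsa, the alpha subunit of the phenylalanyl enzyme, was at 127 and 83.0 TPM, and Farsb, the beta subunit of the same enzyme, at 48.8 and 50.7 TPM. Both subunits are needed for the enzyme, and the alpha subunit message was the higher in each library. Gars (glycyl) had 90.2 and 91.2 TPM, the closest pair of values in this group relative to its level. Wars (tryptophanyl) had 98.4 and 81.6 TPM and Vars (valyl) 98.2 and 75.5 TPM. The ranges of Farsa, Gars, Wars and Vars overlapped, so no order among these 4 exceeded the spread between the libraries, and the range of Sars overlapped all of them but Gars. Over coding transcripts of 1000 nt or more, Gars, which has 1 transcript, lay above the other 3 in both libraries, Wars had 83.7 and 69.6 TPM, Farsa 79.4 and 53.1 TPM, and Vars 45.3 and 36.8 TPM. Aars, Nars, Farsb, Yars and Hars lay between 48.2 and 54.6 TPM in their means, followed by Tars at 35.2 and Cars at 28.8 TPM. Aars shares 1326 nt on its own strand with Exosc6, so some of its reads could belong to either gene.

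The 12 genes of the ATF4 list had a median of 51.0 TPM and the 7 other cytosolic genes a median of 49.7 TPM. Of the 5 genes with the core in the promoter, Gars had the highest mean, 90.7 ± 0.693 TPM, and Tars the lowest, 35.2 ± 1.46 TPM (SD, n = 2). Atf4 itself had 295 and 176 TPM in the 2 libraries. Other genes of the amino acid response were at high and low levels alike. Phgdh, the first enzyme of serine synthesis, had 114 and 90.9 TPM, the amino acid transporter gene Slc7a5 had 82.0 and 86.2 TPM, and Trib3, a stress-induced pseudokinase, had 0.51 and 0.54 TPM. Of the 20 response genes on the list, 19 reached 1 TPM in both libraries.

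Apart from Lars2, the mitochondrial genes ranged from 3.34 to 37.0 TPM in their means. Hars2 (histidyl) was highest with 41.1 and 32.9 TPM, and Vars2 followed at 33.6 and 28.1 TPM. This order depends on the transcripts summed: over coding transcripts of 1000 nt or more Hars2 had a mean of 18.7 TPM and Vars2 11.6 TPM, below Tars2 at 23.1, Cars2 at 20.4 and Rars2 at 20.2 TPM. Mars2 (methionyl) and Wars2 (tryptophanyl) were lowest, at 3.44 and 3.23 TPM and at 3.65 and 3.73 TPM. Between them lay Rars2, Tars2, Yars2, Cars2 and Sars2, at means of 25.3, 23.1, 20.5, 20.4 and 18.6 TPM, and Aars2, Iars2 and Fars2 at 15.3, 14.8 and 14.7 TPM. Pars2, Ears2 and Nars2 had 9.45, 8.30 and 6.32 TPM. From Hars2 down to Fars2 each gene overlapped its neighbour over the libraries. Over all transcripts, gaps between the ranges separated Fars2 from Pars2, Ears2 from Nars2, Nars2 from Wars2, and Wars2 from Mars2. Over coding transcripts of 1000 nt or more Ears2, at 5.65 and 4.43 TPM, overlapped Nars2, at 5.19 and 4.09 TPM. By that sum Wars2, at 2.23 and 2.59 TPM, lay below Mars2, at 3.44 and 3.23 TPM. As a second view of the same pathway, 16 genes of mitochondrial charging and translation had a median of 20.9 TPM, with the elongation factor gene Tufm highest at 87.0 and 85.4 TPM, then the tRNA thiolation gene Trmu at 62.3 and 43.4 and the elongation factor gene Tsfm at 43.4 and 31.4 TPM. Among the 19 genes of tRNA maturation and export the splicing endonuclease gene Tsen34, the tRNA ligase gene Rtcb and the La protein gene Ssb were highest, at means of 169, 121 and 96.1 TPM. Of 5 genes related to synthetases by sequence or activity, Aarsd1 and Dtd1 had 41.6 and 34.8 TPM, and Tarsl2 had 8.45 TPM.

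For 14 amino acids with a gene of each kind, leucine left apart, the cytosolic gene was the higher in both libraries. The number was 13 over coding transcripts of 1000 nt or more, where cysteine was the exception, and 13 in the mm9 values, where histidine was. These gave 15 pairs, since phenylalanine was taken with Farsa and with Farsb, and the glutamyl and prolyl activities of Eprs were set against Ears2 and Pars2. The median log2 ratio of cytosolic over mitochondrial TPM was 1.56, a 2.94-fold difference, at 1.26 in replicate 1 and 1.93 in replicate 2. In 9 of 15 pairs the log2 ratio exceeded 1 in both libraries. Pairs that share a gene are not independent of each other.

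Tryptophan stood at 1 end, with a log2 ratio of 4.60 ± 0.21 for Wars over Wars2 (SD, n = 2), or 24.3-fold. Asparagine followed at 3.07 ± 0.34 for Nars over Nars2. At the other end histidine gave 0.39 ± 0.31 for Hars over Hars2 and cysteine 0.51 ± 0.33 for Cars over Cars2, and the distance of both from 0 was little above their SD. Hars and Hars2 lie head to head and overlap by 198 nt on opposite strands. In the mm9 tables, where the values of the libraries carry numbers not tied to a sample, the Hars over Hars2 log2 ratio was 0.26 and -0.07. Retained-intron transcripts made up 49.4% and 48.9% of the TPM of Hars2, and over coding transcripts of 1000 nt or more the log2 ratio was 1.37 ± 0.29 for Hars over Hars2 (SD, n = 2). By the same sum Cars over Cars2 was at -0.13 in replicate 1 and 0.34 in replicate 2, so that cysteine alone changed sign between the libraries.

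**Figure D2:**
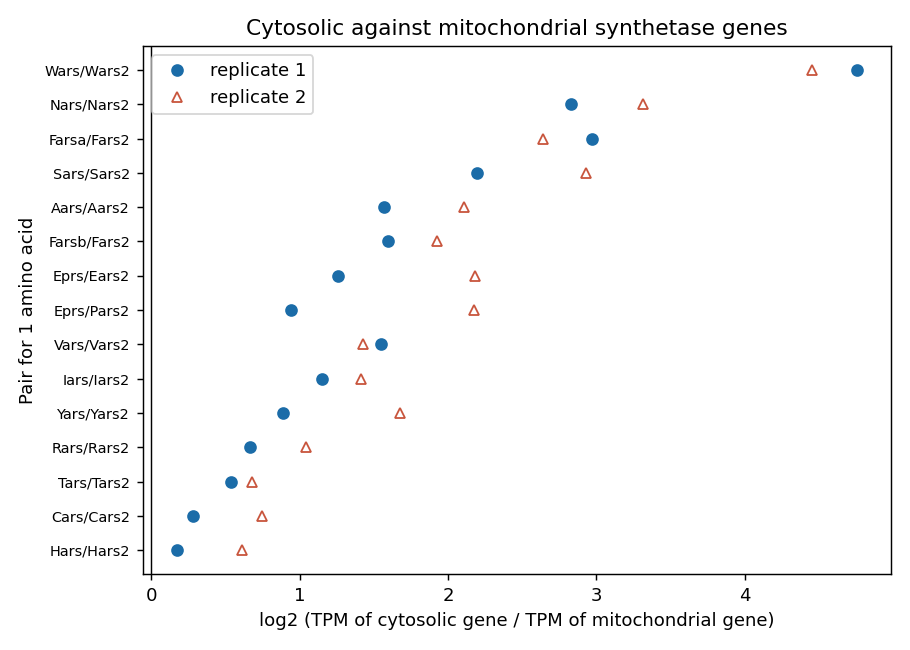
log2 ratio of cytosolic over mitochondrial TPM for 15 pairs, with circles for replicate 1 and triangles for replicate 2, and a vertical line at equal levels. All points lie to the right of 0, from Hars over Hars2 at 0.17 and 0.61 to Wars over Wars2 at 4.75 and 4.45.

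The mitochondrial genes were mostly lower in replicate 2 than in replicate 1, and the cytosolic genes were mixed. Differences are given as log2 of (TPM + 1) in replicate 2 minus replicate 1, a scale that understates the difference of low genes. Of 15 mitochondrial genes other than Lars2, 14 were lower in replicate 2, where 48.8% of 13642 protein-coding genes with a mean of at least 1 TPM were. Their median was -0.26, beside 0.01 over those protein-coding genes and 0.01 over all annotated genes at that level. The exception was Wars2, at 0.02. Over all transcripts Yars2, the tyrosyl enzyme, was the farthest at -0.57, from 24.7 to 16.3 TPM, then Pars2 at -0.54 and Rars2 at -0.50. The place of Yars2 depends on the transcripts summed. Over coding transcripts of 1000 nt or more it went from 16.1 to 14.3 TPM. By that sum Pars2 went from 7.44 to 5.43 TPM and Rars2 from 23.1 to 17.3 TPM, both larger differences for their level. Of 19 cytosolic genes, 13 were higher and 6 lower in replicate 2, with a median of 0.09. The number higher was 10 with the TMM or DESeq2 scaling and 15 on TPM rescaled without rRNA-like entries, against 14, 14 and 13 of the mitochondrial genes lower.

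Few of these differences were large. Eprs was at least 1.5-fold higher in replicate 2, at 0.61, and Farsa at least 1.5-fold lower, at -0.61; Lars2 was the only other gene past that fold on this scale. With a pseudocount of 0.1 TPM, Pars2 and Yars2 also passed it, both lower, which made 3 of 35 lower beside 7.24% of protein-coding genes. Over coding transcripts of 1000 nt or more Pars2 had 7.44 and 5.43 TPM and Yars2 16.1 and 14.3 TPM. Neither pair of values was 1.5-fold apart. Of all annotated genes with a mean of at least 1 TPM, 9.43% were that much higher and 6.38% that much lower, and of protein-coding genes 8.45% and 5.86%. The shares among the synthetase genes, 2 of 35 higher with Lars2 and 1 of 35 lower, did not exceed these with the pseudocount of 1. Lars, at 0.52, was the second highest of the cytosolic genes. Among the companion genes, 17 of 19 for tRNA maturation and export and 11 of 16 for mitochondrial charging and translation were lower in replicate 2, with medians of -0.16 and -0.04. The tRNA splicing endonuclease gene Tsen54 was at 30.2 and 18.5 TPM, and the arginine transporter gene Slc7a1 at 8.85 and 17.3 TPM. Atf4 stood at -0.74 on this scale. Of the 12 genes of the ATF4 list 9 were above 0, beside 4 of the 7 other cytosolic genes. Of the 13642 protein-coding genes with a mean of at least 1 TPM, 6961 were. The count for the ATF4 list was not repeated with the other scalings, which changed the count for the cytosolic genes.

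**Figure D3:**
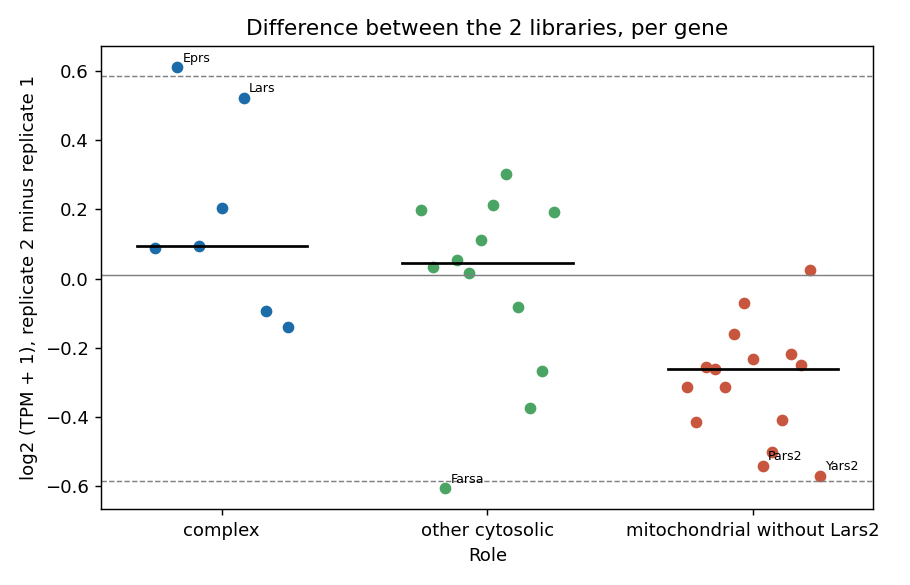
Difference between the libraries in log2 of (TPM + 1) for 34 genes by role, with black bars at the group medians, dashed lines at 1.5-fold and a grey line at the median of protein-coding genes, 0.01. The mitochondrial genes sit below 0 except Wars2, and Eprs and Farsa lie past the dashed lines.

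The same transcript led each gene in both libraries, although the shares of transcripts shifted in some genes. The deposited annotation has 1 transcript for 10 of the genes and several for 25. In all 25 the same transcript led in both libraries, where it did in 91.8% of 7168 genes at 10 TPM or more with at least 2 transcripts. A shared leader was thus the usual case and is not particular to these genes. The largest shift of a share within a gene reached 23.55 percentage points in Yars2 and 11.6 in Nars2. The 25 genes were not filtered by level, and Ears2, Nars2, Pars2 and Wars2 had means below 10 TPM. In each of the 25 the leading transcript is annotated as coding. Its share of the gene had a median of 68.7% and was 50% or more in both libraries in 20 of the 25. The other 5 were Qars, Vars, Hars2, Vars2 and Yars2, the last at 49.7% and 73.3%. Retained-intron transcripts held 20% or more in both libraries in 7 genes. They took 49.4% and 48.9% in Hars2, 41.7% and 47.0% in Vars2, 38.1% and 40.7% in Ears2, 32.8% and 35.0% in Vars, and 31.8% and 31.3% in Farsa. The share among all genes with several transcripts was not computed for these 7 genes, for coding leaders or for leaders at 50% or more. These counts therefore have no background beside them. Short entries weigh heavily in TPM, which is a level per length: Vars had a mean of 86.8 TPM over all its transcripts and 41.1 TPM over coding transcripts of 1000 nt or more, and Hars2 had 37.0 and 18.7 TPM.

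Kars makes the enzyme of both compartments, and in mammals the form sent to mitochondria is known to arise by alternative splicing near the start of the protein. Kars-201, which encodes 595 codons in vM21, held 74.3% of the gene in replicate 1 and 79.1% in replicate 2. Kars-202, with 624 codons, held 24.4% and 19.3%. In the mm9 junction reads of both libraries summed, the junction that joins the first exon of the gene to the common exons directly had 937 reads. The junction from the alternative exon to the same acceptor had 213. In the 2 numbered values the first had 313 and 624 reads and the second 95 and 118, so their proportion differed. The junction from the first exon into the alternative exon had 166 and 125 reads. Yars2 had the largest shift of any transcript share between the libraries. Its coding transcript was at 12.3 and 11.95 TPM, and a retained-intron transcript was at 5.64 and 0.92 TPM, or 22.9% and 5.64% of the gene.

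Splice junction reads give a count that does not rest on TPM. On mm9 with Ensembl 65 annotation, 34 of 35 genes had annotated introns, and Mars2 had none. For each gene the median number of reads was taken over its annotated introns with reads, both libraries summed. Introns without reads were left out. Over the cytosolic genes the median of these values was 793, with a range of 154.5 to 1930. Over the mitochondrial genes without Lars2 it was 303, with a range of 65 to 467. Sars was highest and Pars2, Wars2 and Nars2 lowest, at 65, 78 and 102 reads. Only 2 of 4 introns of Pars2 and 6 of 13 of Wars2 had reads, so their values are too high for all introns. Junctions absent from the annotation took a median of 2.14% of the junction reads of a gene, from 0.369% in Tars to 13.3% in Pars2.

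Lars2 (ENSMUSG00000035202, mm10 chr9:123366927-123462666), the mitochondrial leucyl enzyme, had far more counts than its junctions. Its expected counts were 71449 in replicate 1 and 246687 in replicate 2, a 3.45-fold difference, and its mean level, from 285 and 1096 TPM, exceeded that of 99.4% of protein-coding genes. Its annotated junctions held 1704 and 1650 reads in the 2 numbered values, which differ little. The median over its introns was 144 reads, within the range of the other mitochondrial genes. Lars2 thus had 94.9 expected counts for each junction read, where the other genes had a median of 1.00 and a maximum of 14.8, in Pars2, which has 2 introns with reads. The counts and the junctions come from different builds and alignments, so the ratio is a comparison between files.

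**Figure D4:**
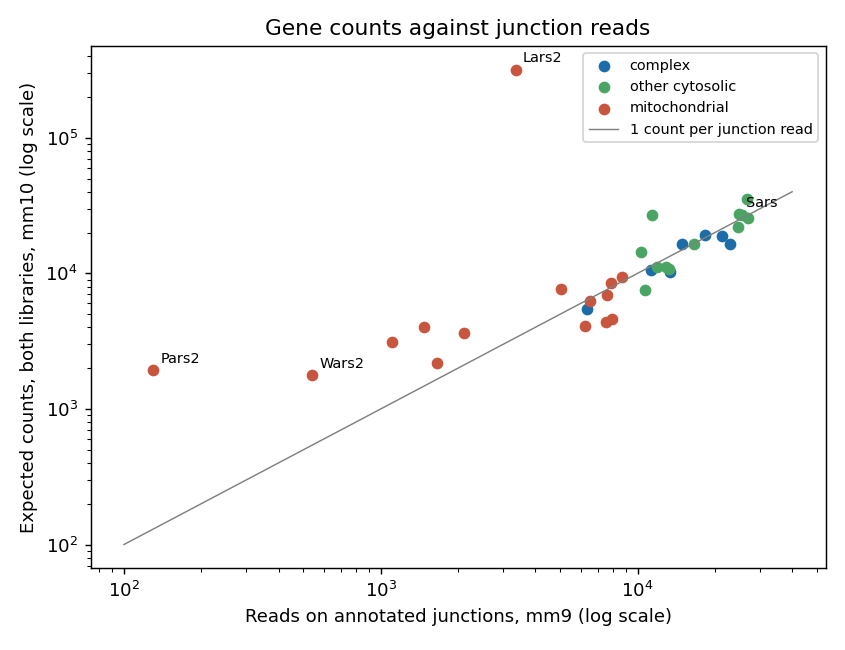
Expected counts summed over both libraries against reads on annotated junctions, on log axes, for 34 genes coloured by role, with a grey line at 1 count per junction read. Lars2 lies at 94.9 counts per read, far above the line along which most genes fall.

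The mm9 coverage of Lars2 lay mostly in 1 contig, which overlaps its last exon. In the deposited contigs, stretches of continuous coverage with a signal whose scale is not given, the contig over the last exon of Lars2 (chr9:123370418-123373132, 2715 nt) had a signal of 632, and the 16 contigs over its other exons had a median signal of 0.584, with none above 2. The contig over the last exon had 1082 times the median signal of the contigs over the other exons. In the other genes this ratio ran from 0.0985 to 4.41, with no value for Qars, Mars2, Pars2 and Wars2. A contig has 1 signal value and can also cover intron or flanking sequence, so this is not a value of the exon alone. The contig of 2715 nt is longer than the last exon on mm10, which has 1166 nt. On mm10 the last exon (chr9:123461499-123462664) makes up 29.9% of the Lars2 transcript of vM21 that matches the single one in the tables. Genes that hold rRNA-like sequence were also higher in replicate 2: Gm42418 was at 2142 and 20469 TPM, Gm26917 at 239 and 911 TPM, and the mitochondrial rRNA genes mt-Rnr1 and mt-Rnr2 at 148 and 928 and at 303 and 2617 TPM. Whether reads of such sequence make up the Lars2 counts was not tested. Lars2 is for this reason left out of every median and pair given for the mitochondrial genes.

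**Figure D5:**
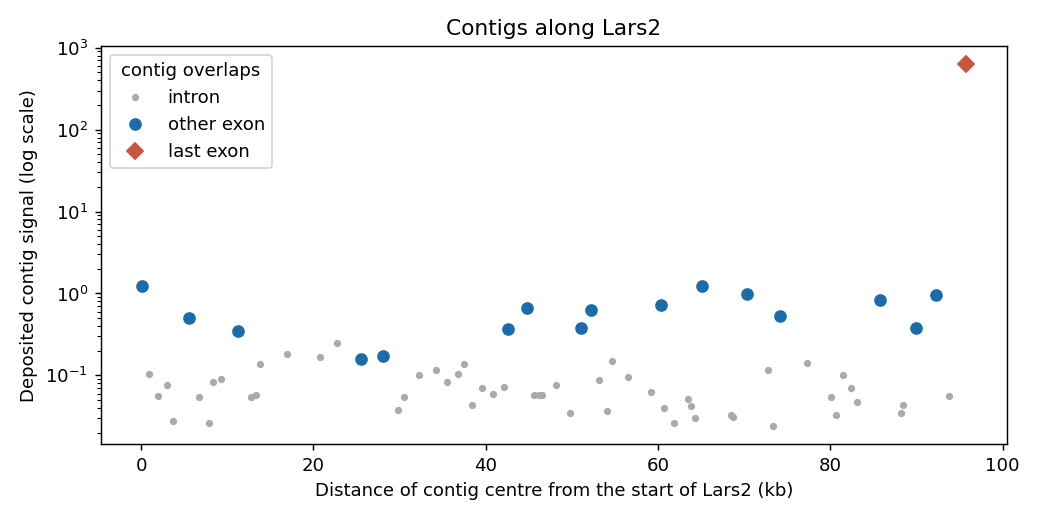
Deposited contig signal on a log axis against distance from the start of Lars2 in kb, with grey dots for intronic contigs, blue circles for contigs over exons and a red diamond for the last exon. The last-exon contig, at 632, lies above all others, none of which passes 2.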

How the data were processed

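RNA of 2 libraries of whole brain was measured by sequencing, per the labels as stranded paired-end libraries. The mm10 tables hold expected counts that the authors estimated with GENCODE M4 annotation, per the deposited text notes, with deposited TPM and FPKM values beside them; no source used here names the tool. The deposited mm9 values are RPKM per gene, read counts per junction and contig signal, in which the numbered values are not tied to a sample by the labels. Symbols and coordinates came from GENCODE vM21. Medians, ratios and shares were computed with pandas 2.3.3 and numpy 2.4.6, with a pseudocount of 1 TPM for differences between libraries. Expected counts were rounded for the scaling alternatives of edgeR 4.0.16 (TMM) and DESeq2 1.42.0 (size factors), which were tested on simulated data. Both libraries form 1 group, so no test was run and precision is limited by their number. All 35 genes were to be named with values; companion genes were the highest of each list, those 1.5-fold or more apart, and Trib3, chosen after its values were seen. The genes and lists were chosen with earlier results of these data known. Of 68 companion genes 63 were matched by symbol, and scaling factors were computed without the 97 spike-in entries. Only a part of the marker genes is reported here.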

Additional observations from a re-analysis of the deposited data

How the results depend on the processing

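Of 83 alternatives, 66 stayed the same and 17 moved. Same meant within the spread between the libraries, within 0.1 on the log2 scale where there was no such spread, or within 1.5 times for a count. Some of the 66 could not have come out otherwise. With all 35 genes at 1 TPM in both libraries, a lower threshold or 1 library gives 35 again. A ratio of 2 genes within a library is the same in FPKM as in TPM. Leaving out 1 library is a weak check, because the spread it is held against comes from the same 2 libraries. The tally is therefore no measure of robustness. No median, count or Lars2 value among the alternatives changed direction, although single pairs did. These were Hars over Hars2 in 1 mm9 value (-0.07) and Cars over Cars2 over coding transcripts of 1000 nt or more in replicate 1 (-0.13). On TPM rescaled without spike-in, mitochondrial and rRNA-like entries the medians became 59.3 TPM for the cytosolic and 18.2 TPM for the mitochondrial genes, the median difference between libraries -0.014 over 34 genes and 0.19 over the cytosolic ones, and Lars2 2.04; this scaling put the median of protein-coding genes at 0.11, and 13 of 15 mitochondrial genes stayed lower in replicate 2. With TMM or DESeq2 size factors 14 did. Values in FPKM were 30.8 and 9.53, and in mm9 RPKM 5.60 and 1.64, which are other units. Coding transcripts of 1000 nt or more, an alternative chosen after seeing the data like those for the mitochondrial and cytosolic genes apart, gave 42.3 TPM for the cytosolic genes. Leaving out 1 library gave 48.8 to 52.3 TPM for the cytosolic median and 70.6 to 73.3% for the leading transcript, whose share was 96.0% among coding transcripts only and 82.2% in expected counts. The number of genes 1.5-fold apart, 3, was 5 with a pseudocount of 0.1, 1 at 2-fold and 10 at the lower fold threshold tried. In mm9 RPKM 30 of 35 genes reached 1, and the cytosolic gene was higher for 13 amino acids, as it was over the long coding transcripts. The mm9 values gave no direction between the libraries, and Lars2 without rRNA-like transcripts was not run, since it has 1 transcript. No paired analysis was possible because there is 1 group.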
